A study of Mus musculus with 9 samples.

Results

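The 10 genes described here encode ligands and receptors of the VEGF and angiopoietin pathways together with pigment epithelium-derived factor (PEDF). They are Vegfa, Pgf, Kdr, Flt1, Nrp1, Nrp2, Angpt1, Angpt2, Tek and Serpinf1, taken by name from the 37725 genes of a single-cell RNA-sequencing matrix of the mouse retina, where all 10 have a row. The matrix holds 31089 cells from 9 mice, with both retinas of a mouse combined into 1 sample. All mice carried RPE65-ERT2-Cre.miR-211fl.miR-204fl, that is, floxed alleles of the miR-204 and miR-211 genes and a Cre recombinase that is driven from the Rpe65 gene and needs tamoxifen to act. The 4 control mice (S01 to S04) received corn oil and the 5 double knockout (dKO) mice (S05 to S09) received tamoxifen at 75 mg/kg on 5 days from postnatal day 28, and all were taken 6 months after these injections. Because the Cre acts in the retinal pigment epithelium (RPE), every other cell type was meant to keep both miRNAs. The controls carried the Cre and the floxed alleles too, no mouse without them was compared, and only the dKO mice were given tamoxifen. Levels of the miRNAs themselves were not analysed here, so the deletion was not checked.

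VEGF-A is a secreted ligand of the receptor tyrosine kinases VEGFR1 (Flt1) and VEGFR2 (Kdr). Placental growth factor (PlGF, from Pgf) is a secreted ligand of VEGFR1 and not of VEGFR2. The neuropilins Nrp1 and Nrp2 serve as co-receptors that also bind class 3 semaphorins. Angiopoietin 1 activates the receptor Tie2 (Tek) on endothelium and steadies vessels, whereas angiopoietin 2 competes with it in most settings. In the eye the RPE is known as a source of VEGF-A for the choroidal capillaries, Müller glia and astrocytes as sources for the retinal vessels, and PEDF (Serpinf1) as a secreted factor that restrains vessel growth.

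Depth differed widely between mice. The samples held 1620 to 4704 cells and between 15079143 and 66528160 unique molecular identifiers (UMIs, 1 per captured mRNA molecule), and the median per cell was 4775 to 5413 UMIs in S04, S05 and S07 but 8118 to 10340 elsewhere. These 3 mice were also low in Xist (35.4 to 51.8 CPM against at least 1377) and high in Uty (at least 177.7 CPM against at most 2.26). The labels give S06 and S07 a single animal number, but S06 had 1377 CPM of Xist and 2.19 CPM of Uty, whereas S07 had 46.5 CPM and 180.3 CPM. Every cell identifier in the matrix was unique, which cannot show whether S06 and S07 came from 1 animal. CPM is a gene's UMIs per 1000000 UMIs, summed over the cells of a type within 1 mouse. It is not divided by gene length, so levels are compared between cell types and mice for 1 gene, and not between genes.

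Cells were grouped by 5 marker genes per cell type. A cell that met the markers of 2 or more types (1246 cells) was left out, with the following exceptions. A cell that met only the astrocyte and Müller glia markers was kept as an astrocyte. One that met only the horizontal and amacrine cell markers was kept as a horizontal cell. In astrocytes the Müller markers made up 0.497% to 0.728% of UMIs by mouse, against 0.803% to 1.40% in Müller glia. The names below stand for RPE-like, Müller glia-like cells and so on, that is, for cells that met those markers. RPE was represented by 318 cells (3 in S05, none in S04), Müller glia by 2119, endothelial cells by 178, pericytes by 135, fibroblasts by 348, horizontal cells by 239 and astrocytes by 47. RPE cells had 4591 ± 1187 CPM of Rpe65 and 1547 ± 276 CPM of Lrat (SD, n = 7 mice), both visual cycle enzymes, and the pigment enzyme gene Tyr, which was not a marker, stood at 423 ± 39 CPM there against 0.553 ± 0.416 CPM in Müller glia of the same mice. One of the 5 RPE markers, Best1, was at 0.140 ± 0.371 CPM in RPE and so marked nothing. All 5 markers of Müller glia, endothelial cells and pericytes were detected in their own cells. A level is given for mice with at least 10 cells of the type, which leaves 7 mice (3 control and 4 dKO) for RPE, endothelial cells, pericytes and horizontal cells, 6 (3 and 3) for fibroblasts and all 9 for Müller glia.

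Since the miRNAs were the target of the deletion, their mature 5p sequences (RefSeq, GRCm38.p6 table) are shown with the seed, bases 2 to 8, in capitals. They share the seed and differ at position 17.
mmu-miR-204-5p: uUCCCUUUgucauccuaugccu
mmu-miR-211-5p: uUCCCUUUgucauccuuugccu

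The complement of that seed, AAAGGGA, was looked for on the sense strand of the annotated 3′-UTRs (GENCODE M39, GRCm39). It occurred in 4 of the 10 members, against 21.3% of all 20956 protein-coding genes with a 3′-UTR. The matches stand in capitals within 30 bases, 5′ to 3′ on the strand of the gene, because they are the members in which a change after the deletion could be read beside a seed match.
Angpt1 (chr15:42290158-42290164, minus strand): aatcatgtttaAAAGGGAagaaacttctca
Serpinf1 (chr11:75300488-75300494, minus strand): gacctgaaagcAAAGGGAaaagatgaagcc
Flt1 (chr5:147500646-147500652, minus strand): tcttatggaggAAAGGGAgaacagagcaaa
Flt1 (chr5:147573083-147573089, minus strand): tagaatgtgctAAAGGGAgctagaaatgca
Nrp2 (chr1:62854971-62854977, plus strand): agtctagggagAAAGGGAgatgcagctgtg
Nrp2 (chr1:62856379-62856385, plus strand): gatgactccagAAAGGGAggcatcaggaag
The Angpt1 and Serpinf1 matches are followed by an A, the longest class of seed match, and the others are not. The Angpt1 match lies in 4 of 5 annotated 3′-UTRs of that gene and the Serpinf1 match in 12 of 14. The second Flt1 match lies in only 1 of 7, and both Nrp2 matches in 4 of 7. Vegfa, Pgf, Kdr, Nrp1, Angpt2 and Tek held no match in these UTRs. A match is a stretch of letters, and binding was not measured.

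Each gene had its own distribution over the cell types, drawn in the map of mean levels. Among the types with 3 or more mice, Vegfa was highest in RPE, Kdr in Müller glia, Flt1 and Tek in endothelial cells, Angpt2 in pericytes, and Pgf, Nrp1, Nrp2, Angpt1 and Serpinf1 in fibroblasts.

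**Figure D1:**
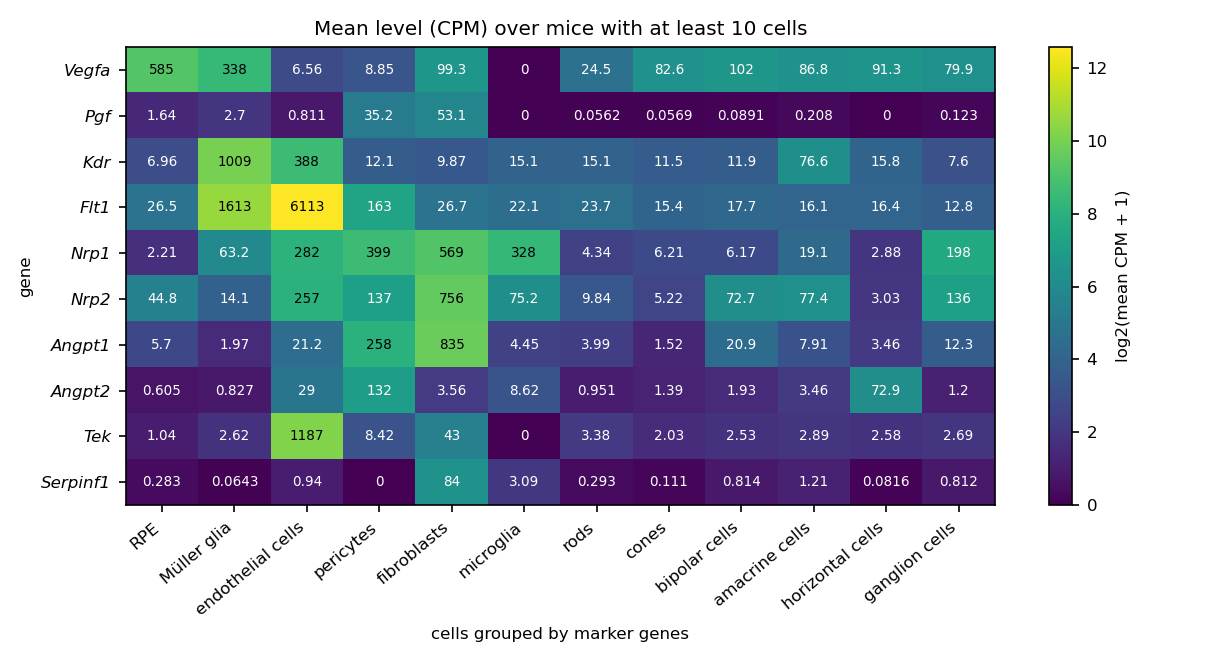
Mean level in CPM (numbers in the cells) of the 10 genes (rows) in 12 marker-defined cell types (columns) over the mice with at least 10 cells, coloured by log2(mean CPM + 1). Vegfa is brightest in RPE and Müller glia, Kdr in Müller glia, Tek in endothelial cells and Serpinf1 in fibroblasts.

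Vegfa (chr17:46327919-46343309) codes for VEGF-A. In RPE its level was 682, 359 and 634 CPM in the control mice S01 to S03 and 611, 719.6, 617 and 472 CPM in the dKO mice S06 to S09. In Müller glia it was 413, 257, 469 and 110.2 CPM in S01 to S04 and 269.8, 263, 385, 439 and 440.4 CPM in S05 to S09. S04 was the lowest, with 29 Vegfa UMIs from 21 cells, and control and dKO mice overlapped in both cell types. The highest RPE value, that of S07, came from 10 cells with 34743 UMIs in all. RPE of the other mice used here had at least 975780 UMIs. Within mice, RPE was higher in 7 of 7, by 0.62 ± 0.36 (SD) on the log2(CPM + 1) scale (exact paired permutation test, two-sided, p = 0.0156, adjusted over 10 tests p = 0.0391, n = 7), and this p is the smallest that 7 mice allow. With 1 of the 7 mice left out RPE was still higher in 6 of 6, but the smallest p the exact test allows is then 0.0312 and the adjusted p was 0.0625 to 0.0781. At an equal depth of 4000 UMIs per cell, 86.6% of RPE cells (70.0% to 97.1% by mouse) and 57.6% of Müller glia (23.8% to 65.0%) had at least 1 Vegfa UMI. The share was 8.17% in rods, the type taken as a reference for carried-over RNA, which was not itself measured. Cells with fewer than 4000 UMIs do not enter these shares, which cover 321 of the 329 Müller glia of S01. The median depths over all cells were 16157 UMIs in RPE, 14816 in Müller glia and 4684 in rods. The unthinned shares, also over all cells, were 89.6%, 82.6% and 11.4%.

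Astrocytes, which line the inner retinal surface, had still more Vegfa. Their summed level was 770 to 3269 CPM in the 8 mice that had any (47 cells in all, at most 11 per mouse), above the RPE of the same mouse in each of the 6 mice with any astrocytes and at least 10 RPE cells. In the 2 mice with at least 10 astrocytes it was 3207 CPM (S02, control) and 1158 CPM (S09, dKO), so no test was made. Below Müller glia followed bipolar cells (102 ± 17.9 CPM, SD, n = 9), fibroblasts, horizontal, amacrine, cone and ganglion cells, down to 79.9 ± 10.9 CPM (n = 8), each within 1 SD of its neighbour in that order. Rods stood apart from these at 24.5 ± 8.2 CPM (n = 9). Pericytes (8.85 ± 11 CPM) and endothelial cells (6.56 ± 4.24 CPM, both n = 7) overlapped in spread, and no Vegfa UMI was found among 494398 UMIs of microglia, which allows a level of up to 6.07 CPM. Over all cells, with 2119 Müller glia and 318 RPE cells, Müller glia gave 25.8% of all Vegfa UMIs, RPE 13.4%, amacrine cells 12.3% and astrocytes 4.55%.

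**Figure D2:**
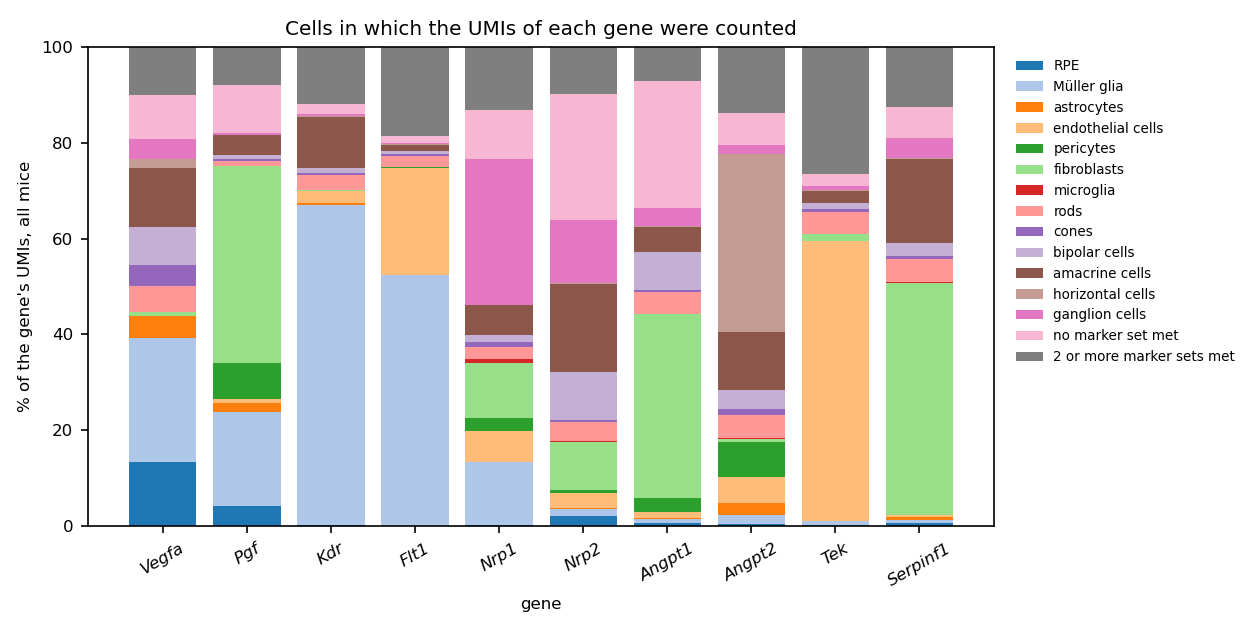
Share of the UMIs of each gene, over all 9 mice, that was counted in each marker-defined cell type, in cells that met no marker set and in cells left out because they met 2 or more. Müller glia account for 66.8% of Kdr and 52.3% of Flt1, endothelial cells for 58.4% of Tek and horizontal cells for 37.2% of Angpt2.

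Pgf (chr12:85213409-85224564), which codes for PlGF, was highest in fibroblasts and pericytes among the types with 3 or more mice. Its fibroblast level was 32.6, 24.9 and 78.4 CPM in the control mice S01 to S03 and 70.0, 56.9 and 55.7 CPM in the dKO mice S06, S08 and S09. Pericytes had 41.0, 20 and 41.4 CPM in control and 30, 59.3, 17.9 and 36.8 CPM in dKO mice, so the groups overlapped in both, and the means of the 2 types (53.1 ± 20.8 and 35.2 ± 14.2 CPM) lay within their SDs. All other types with 3 or more mice averaged at most 2.70 CPM. Müller glia of control mouse S02 reached 11.3 CPM, from 51 UMIs, against at most 3.80 CPM in the other mice. Between RPE and Müller glia Pgf did not pass the test (1.64 ± 1.40 and 2.93 ± 3.75 CPM in the same 7 mice, exact paired permutation test, two-sided, adjusted p = 0.286).

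Angpt1 (chr15:42288058-42540417), the ligand that activates Tie2, was highest in fibroblasts, at 643, 324 and 1339 CPM in control and 866, 1147 and 691 CPM in dKO mice. Pericytes followed with 382, 301 and 139.7 CPM in control and 288, 376, 126 and 196 CPM in dKO mice. Both pairs of groups overlapped, while the means of the types (835 ± 366 and 258 ± 106 CPM) lay more than their SDs apart. Cells that met no marker set, whose leading genes include the corneal keratins Krt5 and Krt12, held another 26.5% of the Angpt1 UMIs, beside 38.4% in fibroblasts. Angpt2 (chr8:18739202-18791603), the context-dependent antagonist, was not high in the same cells: fibroblasts had 3.56 ± 3.99 CPM (n = 6).

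Pericytes had 81.9, 80.2 and 119 CPM of Angpt2 in control and 102, 317, 161 and 61.3 CPM in dKO mice. Horizontal cells, inhibitory neurons of the outer retina, came next with 59.6, 82.2 and 72.4 CPM in control and 86.4, 75.3, 81.4 and 53.4 CPM in dKO mice. The 2 cell types overlapped in spread (132 ± 87.7 and 72.9 ± 12.3 CPM), and horizontal cells stood apart from endothelial cells (29.0 ± 23.3 CPM, all n = 7). Horizontal cells were the deepest-sequenced of these, and at 4000 UMIs per cell 21.4% of them had an Angpt2 UMI (13.0% to 28.0% by mouse), against 0.360% of rods and 30% of pericytes (75.7%, 0.531% and 37.0% unthinned, at median depths of 37994, 4684 and 7948 UMIs). They held 37.2% of all Angpt2 UMIs, pericytes 7.38% and endothelial cells 5.45%. Neither angiopoietin passed the paired test between RPE and Müller glia (adjusted p = 0.625 for Angpt1 and 0.293 for Angpt2, exact paired permutation, n = 7), and all 4 means were at most 5.70 CPM.

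Serpinf1 (chr11:75299998-75322362), which codes for PEDF, was measured in fibroblasts at 73.3, 105 and 81.7 CPM in control and at 70.0, 78.0 and 96.1 CPM in dKO mice. The groups overlapped, and the fibroblast mean (84.0 ± 13.7 CPM, n = 6) stood apart from the other types with 3 or more mice, whose means were at most 3.09 CPM. RPE, the cell in which PEDF is best known, gave only 4 Serpinf1 UMIs among 10465539, or 0.382 CPM with an exact Poisson interval of 0.104 to 0.979 CPM for counting error. The 4 UMIs came from S06 (3) and S08 (1), both dKO mice. The same RPE cells held Rpe65 and Lrat at the levels given above, and like Best1 this gene was near 0 in them. Whether the upstream annotation or read assignment lowered the counts of these genes was not tested, so the RPE value is a count in this matrix and not a measure of PEDF made by RPE. Müller glia gave 3 UMIs among 32500320, and pericytes none among 1110620, which allows up to 2.70 CPM. Serpinf1 did not pass the paired test between RPE and Müller glia (adjusted p = 0.625, exact paired permutation, n = 7).

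**Figure D3:**
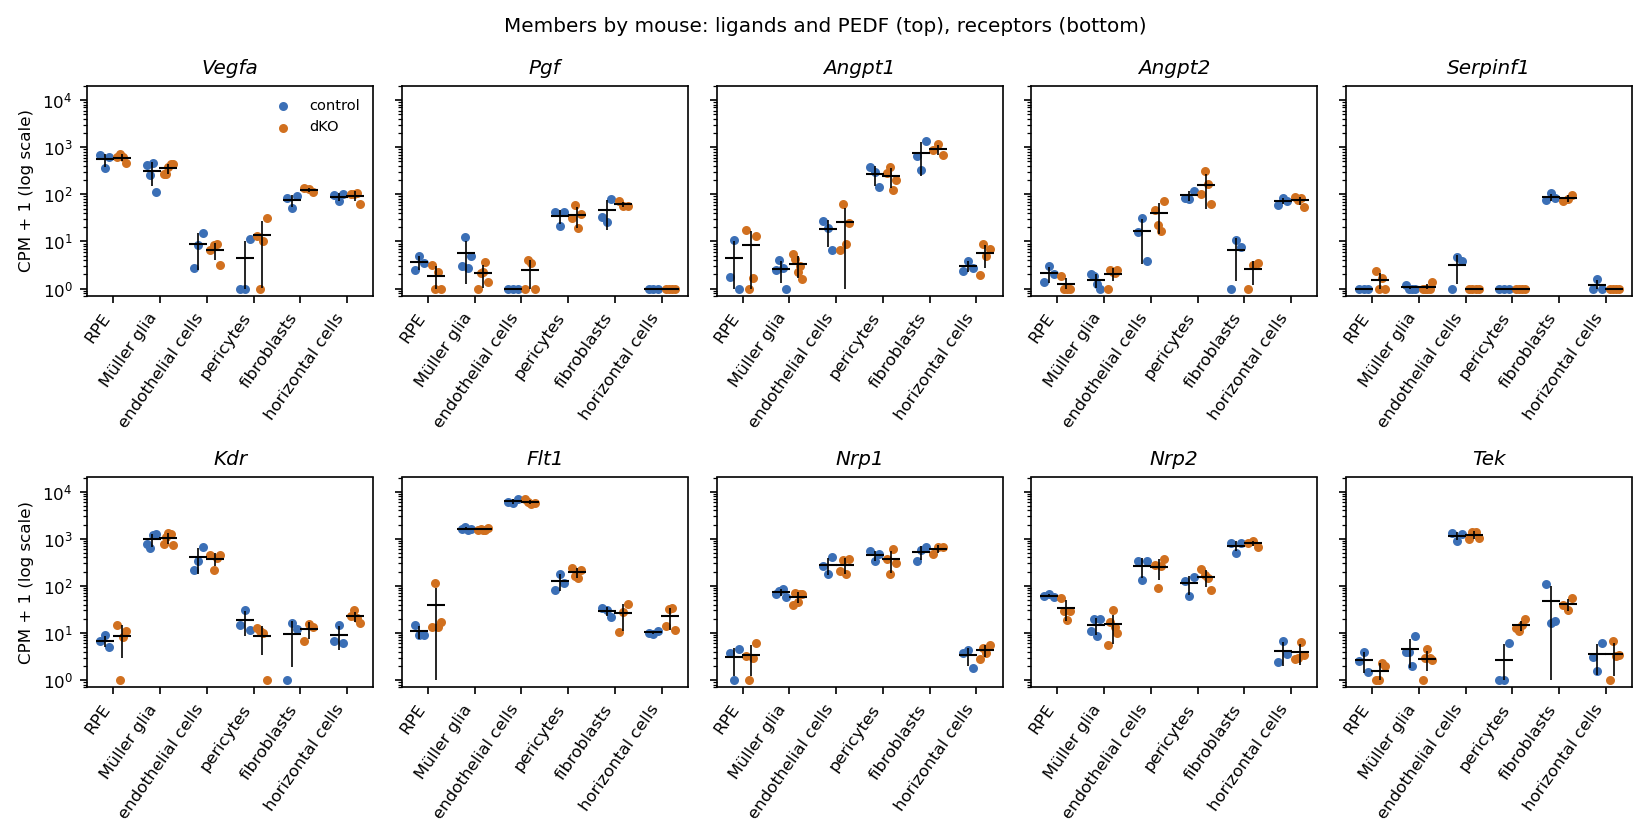
Level of each gene in each mouse (points, CPM + 1 on a log axis) in 6 cell types, with control mice in blue and dKO mice in orange, and the group mean and SD in black (the SD is cut where it would pass 0). Groups overlap in most panels, and differences between cell types are larger than those between groups for Vegfa, Flt1, Tek, Angpt1 and Serpinf1.

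Kdr (chr5:76093487-76139884) codes for VEGFR2, the main signalling receptor for VEGF-A on endothelium. In endothelial cells its level was 221, 338 and 653 CPM in control and 456, 212, 393 and 443 CPM in dKO mice. In Müller glia it was 787, 651, 1216 and 1269.7 CPM in control (S01 to S04) and 758, 1109.8, 1306, 1248 and 733 CPM in dKO mice (S05 to S09). Müller glia exceeded endothelial cells in each of the 7 mice with both. The Müller values fell into a lower set of 651 to 787 CPM (S01, S02, S05, S09) and an upper one of 1109.8 to 1306 CPM (S03, S04, S06, S07, S08), and each set held control and dKO mice. This split was drawn from the values themselves and was not tested. Amacrine cells came next (76.6 ± 9.33 CPM, n = 9) and stood apart from the types below them, which averaged at most 15.8 CPM and overlapped in spread. Astrocytes, outside this order with 2 mice, had 171 Kdr UMIs or 167 CPM over all their cells (exact Poisson interval 143 to 194 CPM). That interval covers counting error and not the spread between mice. By mouse the level ran from 49.5 CPM in S06 (6 UMIs) to 417 CPM in S09, which gave 77 of the 171 UMIs.

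Flt1 (chr5:147498414-147662826) codes for VEGFR1, which binds VEGF-A tightly and in its soluble form sequesters it. Endothelial cells had 5928, 5795 and 6920.4 CPM in control and 6886, 6045, 5476 and 5741 CPM in dKO mice. Müller glia had 1643, 1783, 1499 and 1616 CPM in control and 1505, 1648, 1547, 1567 and 1709 CPM in dKO mice, the narrowest spread of any member relative to its mean. Pericytes followed at 163 ± 56.1 CPM (n = 7), and each of these 3 types stood apart from the next. UMIs do not separate the membrane-bound from the soluble transcript.

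The receptor UMIs of Müller glia differed in composition from those of endothelial cells. Endothelial cells held 4.93 Flt1 UMIs for each Tek UMI (20736 and 4205), whereas Müller glia held 772 (53301 and 69). The 5 endothelial markers together came to at most 6.30 CPM in Müller glia of any mouse, against at least 2500.0 CPM in endothelial cells. There were 0.592 Kdr UMIs for each Flt1 UMI in Müller glia and 0.0572 in endothelial cells. At 4000 UMIs per cell, 93.1% of Müller glia had a Kdr UMI (88.6% to 96.3% by mouse) and 98.4% a Flt1 UMI, against 5.05% and 7.71% of rods. Both receptors were found together in 87.5% to 95.2% of Müller glia by mouse, and Vegfa with at least one of them in 23.8% to 65.0%. In RPE, by contrast, 3.03% of cells had a Kdr and 5.19% a Flt1 UMI at that depth, shares no higher than in rods. Whether these UMIs are carried-over RNA was not tested.

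Tek (chr4:94627291-94763224), the angiopoietin receptor, was highest in endothelial cells, at 1324, 899 and 1288 CPM in control and 964, 1366, 1421 and 1044 CPM in dKO mice. Fibroblasts came next at 43.0 ± 33.9 CPM (n = 6), and their largest value was 106 CPM in control mouse S01. The remaining types with 3 or more mice averaged at most 8.42 CPM. Within mice, endothelial cells exceeded pericytes in 7 of 7 for Tek (7.64 ± 1.79 on the log2(CPM + 1) scale), Flt1 (5.29 ± 0.55) and Kdr (5.25 ± 1.77), each with an adjusted p = 0.0391 (exact paired permutation, two-sided, n = 7). Left out of this comparison were 58 cells that met both the endothelial and the pericyte markers. The cells kept over all mice were 178 endothelial cells and 135 pericytes.

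The neuropilins had a wider distribution. Nrp1 (chr8:129085085-129231082) was 338, 569 and 666 CPM in control and 482, 678 and 680.5 CPM in dKO mice in fibroblasts, and 546, 331 and 466 CPM in control and 379, 178, 596 and 300.3 CPM in dKO mice in pericytes. Fibroblasts, pericytes, microglia (328 ± 185 CPM, n = 3), endothelial cells (282 ± 97.6 CPM, n = 7) and ganglion cells (198 ± 26.6 CPM, n = 8) each overlapped with the next in that order. Müller glia stood below them at 63.2 ± 14.9 CPM (n = 9). Ganglion cells, which use neuropilins in axon guidance, held 30.4% of all Nrp1 UMIs, the largest share of any type.

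Nrp2 (chr1:62742444-62857854) was highest in fibroblasts at 810.2, 509 and 827 CPM in control and 823, 891 and 675 CPM in dKO mice. Cells that met no marker set had 127.7 to 182.6 CPM by mouse. In each mouse they held more Nrp2 UMIs than the fibroblasts, such as 1147 against 739 in S03 and 1089 against 846 in S08. Endothelial cells had 344, 130.0 and 329 CPM in control and 276, 87.5, 265 and 367 CPM in dKO mice, and overlapped in spread with pericytes (137 ± 56.5 CPM) and these with ganglion cells (136 ± 22.1 CPM). Between endothelial cells and pericytes the test was not passed by Nrp1 (adjusted p = 0.293, endothelial cells higher in 2 of 7 mice) or by Nrp2 (adjusted p = 0.125, higher in 6 of 7), with the exact paired permutation test and n = 7.

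Over the 12 cell types with 3 or more mice, the genes whose mean log2(CPM + 1) followed that of Vegfa most closely were Slc25a23, Pafah2 and Cspg5 (Pearson r = 0.95, 0.93 and 0.93). For Kdr they were Efhc2, Syt15 and Sh3tc2 (r = 0.92, 0.91 and 0.89), and for Serpinf1 AW551984, Wnt11 and Tnnt3 (r = 0.98 each). These were the best of 11587 genes with at least 20 CPM in some type, the 12 points share mice and libraries, and the values are descriptions only.

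The remaining genes of these pathways were taken as 7 lists with 49 genes, of which the 2 with the highest mean over the cell types are named for each. Of the VEGF family, Vegfc, a ligand of VEGFR3, had 277 ± 287 CPM in endothelial cells and Flt4, its receptor, 175 ± 46.3 CPM. Of the plexins and semaphorins, which share the neuropilins, Plxna2 was highest in endothelial cells (1099 ± 345 CPM) and Plxna4 in microglia (925 ± 332 CPM, n = 3). Of the Tie pathway, Ptprb, the phosphatase that restrains Tie2, had 3852 ± 692 CPM in endothelial cells and Svep1, an extracellular ligand of Tie1, 426 ± 83.2 CPM in fibroblasts. Notch1 (398 ± 60.5 CPM) and Nos3, the endothelial nitric oxide synthase (549 ± 146 CPM), led the endothelial response genes. Epas1, which codes for HIF-2α, and Slc2a1, the glucose transporter of the blood-retina barrier, led the hypoxia list, both highest in endothelial cells at 2342 ± 202 and 2571 ± 1044 CPM. Among proposed PEDF receptors Plxdc2 was highest in microglia (4550 ± 902 CPM, n = 3) and Lrp6 in fibroblasts (407 ± 44.5 CPM). Of the other inhibitors of vessel growth, Timp3, the metalloproteinase inhibitor of Bruch's membrane, had 7988 ± 1201 CPM in RPE and Thbs1 1394 ± 406 CPM there. The SDs are over 7 mice for endothelial cells and RPE and 6 for fibroblasts.

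The comparison of dKO with control mice asked whether loss of the miRNAs in RPE went with a change of these genes in RPE or in the cells around it. By edgeR's quasi-likelihood test on UMIs summed per mouse, 0 of the 44 gene and cell type pairs that passed the filter on low counts reached an adjusted p of 0.05, and the smallest adjusted p was 0.881. The background was the same: 0% of the 9618 genes tested in RPE, and 0% of those in Müller glia (13291), endothelial cells (5806), pericytes (3278), fibroblasts (6276), horizontal cells (8637) and all other cells together (19635). At an unadjusted p under 0.05 there were 460 genes in RPE, 252 in Müller glia, 177 in endothelial cells, 108 in pericytes, 267 in fibroblasts, 305 in horizontal cells and 105 in the other cells. Of the 44 pairs of members and cell types, 6 were at an unadjusted p under 0.05: Angpt1, Nrp2 and Kdr in RPE, Vegfa in fibroblasts, and Kdr and Flt1 in horizontal cells. DESeq2 called 0 genes in 5 of these sets, 1 in fibroblasts and 6 in horizontal cells, and limma-voom called 0 in all 7. The fibroblast and horizontal cell comparisons were added after the members' levels there were seen.

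**Figure D4:**
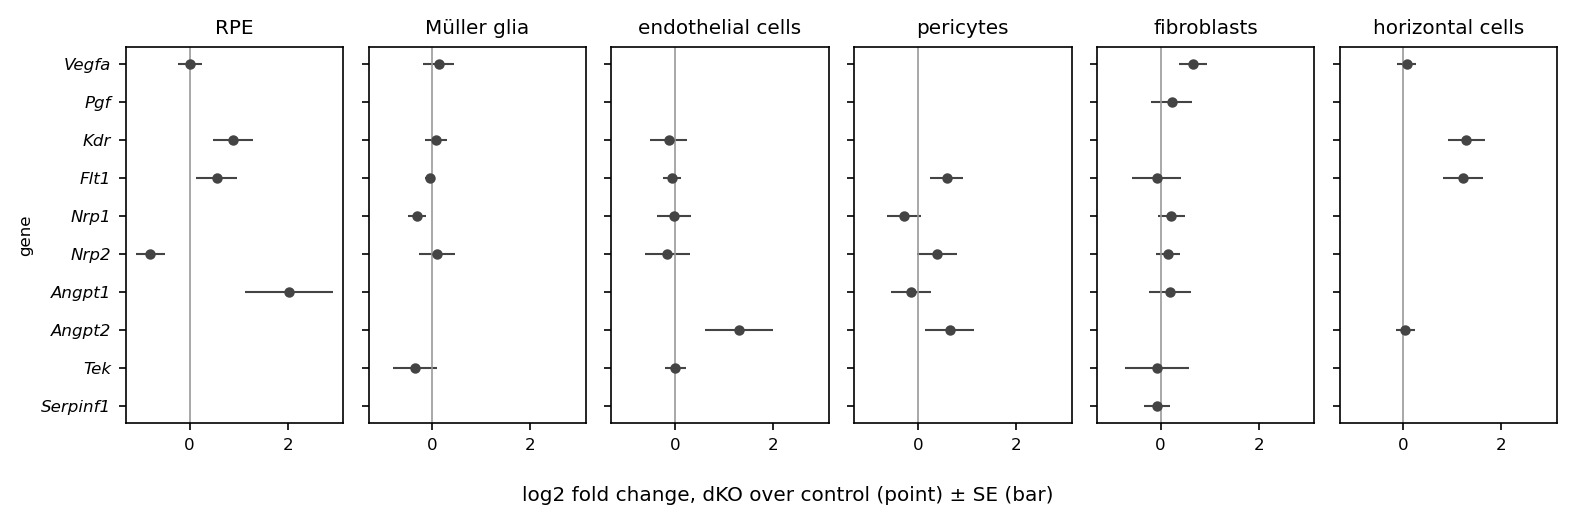
Log2 fold change of dKO over control (points) with its standard error (bars) for each member that passed the filter on low counts, by cell type. Most points lie within about 1 standard error of 0, and none passed the test after adjustment.

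In RPE, where the deletion acts, 5 members passed the filter on low counts. Vegfa had a log2 fold change of 0.01 ± 0.24 (SE), with the per-mouse values given above. Nrp2 had 60.8, 64.8 and 56.7 CPM in control and 55.4, 28.8, 18.2 and 28.7 CPM in dKO mice. All 4 dKO mice lay below the 3 controls, S06 only just, and the value of S07 rests on 1 UMI. The log2 fold change was -0.80 ± 0.30 (edgeR, adjusted p = 0.881, unadjusted p = 0.0149), so the gene did not pass the test. It was -1.37 without S06, -0.52 without S08 and -0.39 without the top 5% of cells by UMIs. Groups that do not overlap were found for 5.55% of all genes tested in RPE, and for 1 of the 5 members.

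Angpt1 in RPE had 0.761, 9.81 and 0 CPM in control and 16.4, 0, 0.649 and 12.3 CPM in dKO mice, with 12 and 50 UMIs in all. Both groups held mice at or near 0, and the fitted log2 fold change of 2.03 ± 0.90 had an adjusted p of 1.0 (edgeR). It ranged from 1.31 without S03 to 4.26 without S02 (adjusted p = 0.132), and without the filter on low counts its adjusted p was 0.0498. Kdr had 5.70, 7.85 and 4.01 CPM in control and 13.7, 0, 7.13 and 10.2 CPM in dKO mice (log2 fold change 0.89 ± 0.40, edgeR adjusted p = 1.0), in a share of RPE cells that was no higher than in rods. Flt1 in RPE was 0.55 ± 0.42, and the 115 CPM of S07 there rest on 4 UMIs from 10 cells. These 10 cells held 34743 UMIs in all, where 3 UMIs of a gene would be 86.3 CPM. The 0 of S07 for Angpt1 and for Kdr therefore cannot show an absence at the levels of the other mice. Pgf, Nrp1, Angpt2, Tek and Serpinf1 did not pass the filter in RPE.

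In Müller glia 6 members were tested, and the log2 fold changes were 0.13 ± 0.31 for Vegfa, 0.07 ± 0.22 for Kdr, -0.05 ± 0.09 for Flt1 and -0.32 ± 0.19 for Nrp1. No member separated the groups there, against 0.828% of all genes tested. In endothelial cells 6 were tested, with log2 fold changes of -0.13 ± 0.38 for Kdr, -0.07 ± 0.18 for Flt1, -0.02 ± 0.34 for Nrp1 and -0.16 ± 0.46 for Nrp2. Tek, the most endothelial of the members, had a log2 fold change of 0.0002 ± 0.21. Angpt2 had the largest endothelial value (1.30 ± 0.70, adjusted p = 1.0), with 15.0, 29.7 and 2.86 CPM in control and 46.4, 21.9, 15.3 and 71.7 CPM in dKO mice, which overlap. Here 0 members and 4.74% of all genes tested separated the groups.

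In pericytes the 5 tested members had log2 fold changes from -0.28 ± 0.34 (Nrp1) to 0.65 ± 0.49 (Angpt2), with Angpt1 at -0.13 ± 0.41, and the groups overlapped for all 5, against 4.55% of genes that did not. Tek did not pass the filter in pericytes, where it held 10 UMIs in all, 1 of them in control mice. The summed endothelial markers in the same pericytes were 67.2 to 218.5 CPM in control and 39.6 to 224 CPM in dKO mice, and their part in that count was not tested. In the other cells together all 10 members were tested, with log2 fold changes from -0.17 (Angpt2) to 0.23 (Flt1), and none separated the groups, against 0.326% of genes.

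In fibroblasts 8 members were tested, from 3 mice in each group. Vegfa had 81.4, 49.9 and 92.9 CPM in control and 136, 126 and 109 CPM in dKO mice, so all 3 dKO mice were above the controls, as 9.78% of all genes tested there separated the groups in one direction or the other. Its log2 fold change was 0.66 ± 0.28 (edgeR, adjusted p = 0.994, unadjusted p = 0.0383). Nrp1 (0.22 ± 0.28), Nrp2 (0.15 ± 0.25), Angpt1 (0.19 ± 0.43) and Serpinf1 (-0.08 ± 0.26) overlapped between groups.

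In horizontal cells 4 members were tested. Angpt2 had a log2 fold change of 0.04 ± 0.19. Kdr had 5.61, 13.7 and 5.05 CPM in control and 22.3, 29.0, 20.1 and 15.1 CPM in dKO mice, and Flt1 9.11, 8.56 and 10.1 CPM in control and 13.4, 30.9, 32.3 and 10.4 CPM in dKO mice. Both separated the groups, as 4.5% of all genes tested did, with log2 fold changes of 1.28 ± 0.38 and 1.22 ± 0.41 that did not pass adjustment (edgeR, adjusted p = 1.0 for both, unadjusted p = 0.0051 and 0.0109). With a looser gate they were 0.67 and 0.39. At 4000 UMIs per cell 4.37% of horizontal cells had a Kdr and 7.86% a Flt1 UMI, shares close to those of rods. The summed Müller markers in the same horizontal cells were 106 to 121 CPM in control and 90.5 to 255 CPM in dKO mice, with the largest value in S08, the mouse with the most Flt1, and their part in these values was not tested.

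Over the 7 pathway lists no gene passed the test in any cell type. In RPE 26 of the 49 genes were tested, 11 with a positive and 15 with a negative log2 fold change (median -0.04 against -0.01 over all genes tested). In Müller glia 33 were tested, 13 positive and 20 negative (median -0.03 against 0.0019), and in endothelial cells 30, with 15 in each direction (median -0.03 against 0.0059). Pericytes had 14 genes tested, 5 positive and 9 negative, fibroblasts 23 with 16 and 7, horizontal cells 17 with 10 and 7, and the other cells 45 with 30 and 15. The members themselves had medians of 0.55 in RPE (5 genes), 0.0093 in Müller glia, -0.05 in endothelial cells, 0.40 in pericytes, 0.02 in the other cells, 0.17 in fibroblasts (8 genes) and 0.65 in horizontal cells (4 genes, all positive), and none of these shifts was tested as a group.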

How the data were processed

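The authors deposited a matrix of raw UMI counts per gene and cell, made from Parse Evercode split-pool libraries with the split-pipe software, per the labels with genome build GRCm39, R 4.2.2 and Seurat 4.3.0. Counts were used as deposited and free RNA was not removed. A cell was assigned to a type with UMIs for at least 3 of its 5 markers and a high enough summed marker level. That level was at least 1/4 of the median of cells with UMIs for at least 4 of the markers. Cells meeting 2 or more types were left out as possible doublets, but astrocytes took precedence over Müller glia and horizontal cells over amacrine cells. Counts were summed per mouse and type for mice with at least 10 cells. Control and dKO mice were compared with edgeR 4.0.16 (quasi-likelihood, TMM, filterByExpr, R 4.3.3) across all genes with Benjamini-Hochberg adjustment, and with DESeq2 1.42.0 and limma-voom 3.58.1 as alternatives. Cell types were compared within mice on log2(CPM + 1) by exact sign-flip permutation (scipy 1.17.1). Shares of cells were taken after thinning to 4000 UMIs, over cells with at least that many. Intervals cover counting error only. The scripts were tested on simulated data. Named pathway genes are the 2 of each list with the highest mean level over the cell types. The members and lists were chosen with earlier results of these data known.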

Additional observations from a re-analysis of the deposited data

Results flagged for a closer look

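Of 47 groups of 4 or 5 mice tested for a single mouse far from the rest, 4 held one, and chance gives about 1 in 20. Nrp2 in amacrine cells was 114 CPM in control mouse S04, from 32 UMIs in 14 cells, against 75.0 to 78.7 CPM in the other controls. Nrp2 in ganglion cells was 175 CPM in dKO mouse S05, from 269 UMIs in 27 cells, against 131 to 141 CPM in the other dKO mice. Vegfa in horizontal cells was 62.6 CPM in dKO mouse S09, from 54 UMIs in 25 cells, against 101 to 108 CPM. Flt1 in RPE was 115 CPM in dKO mouse S07, from 4 UMIs in 10 cells, against 12.3 to 16.4 CPM.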

How the results depend on the processing

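No pairing of dKO with control mice was possible because the replicate numbers of the labels run from 1 to 9 over both groups and none is shared. Depth and cell numbers limit the RPE and vessel comparisons most: S07 gave 10 RPE cells, and S04 and S05 gave too few RPE and endothelial cells to enter. The counts of ligands (1) and of receptors (3) that passed the exact tests between cell types were 0 with the stricter gate, with the looser gate, with S06 and S07 summed, and without any 1 of the 7 mice in them (0 to 0). Except for the ligands with the looser gate, these runs had fewer than 7 mice, where the smallest possible p is larger. The tests that passed with 7 mice could then not pass adjustment over 10 tests even at that smallest p. These counts of 0 therefore cannot show a dependence on the processing. With the looser gate Vegfa kept 7 mice and an exact permutation p = 0.0156, but its p adjusted over the 10 tests rose to 0.125, while the receptor tests had 5 mice and a smallest p of 0.0625.

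With no low-count filter, edgeR calls rose to 74 genes in RPE, 3 in Müller glia, 63 in endothelial cells, 10 in pericytes, 46 in fibroblasts and 88 in horizontal cells, and the cause was not tested. Among them was Angpt1 in RPE (log2 fold change 1.98, adjusted p = 0.0498). DESeq2 called 1 gene in fibroblasts and 6 in horizontal cells. Müller glia gave 1 call without S04, S05 and S07. Horizontal cells gave 2 with S06 and S07 summed, 17 with the stricter gate and 1 without the top 5% of cells by UMIs. Without 1 mouse the calls ranged from 0 to 9 in RPE (9 without S08, 8 without S02 and 5 without S06), 0 to 1 in Müller glia (1 without S01 and 1 without S07) and 0 to 5 in horizontal cells (5 without S06).

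Of the 44 dKO log2 fold changes of members, 16 kept their direction under every alternative run and 28 did not, and none of the 28 had passed the test. Among those described in the text, Vegfa in RPE turned to -0.021 without the filter and -0.0043 with the looser gate, and Kdr in Müller glia to -0.010 with S06 and S07 summed. In endothelial cells, leaving out S04, S05 and S07 gave 0.076 for Kdr, 0.13 for Nrp2 and -0.063 for Tek, and Xist as a covariate 0.096, 0.15 and -0.069. There, leaving out the top 5% of cells gave 0.021 for Kdr, 0.015 for Flt1, 0.098 for Nrp1 and 0.090 for Nrp2, and no filter -0.026 for Tek. Nrp1 there was 0.020 with library size scaling, 0.014 with S06 and S07 summed, 0.081 with the stricter and 0.24 with the looser gate. Angpt1 in pericytes was 0.32 with the looser gate and 0.0092 with a minimum of 5 cells. Serpinf1 in fibroblasts was 0.099 with Xist, Angpt2 in horizontal cells -0.29 with the looser gate, and Pgf in RPE against Müller glia 0.019 without the top 5% of cells.

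Leaving out 1 mouse at a time gave, in RPE against Müller glia, -0.078 to 0.68 for Angpt1 and -0.00099 to 0.28 for Serpinf1. Between dKO and control it gave -0.24 to 0.17 for Vegfa in RPE, and in Müller glia -0.099 to 0.38 for Vegfa, -0.081 to 0.22 for Kdr and -0.095 to 0.0019 for Flt1. In endothelial cells it gave -0.44 to 0.41 for Kdr, -0.15 to 0.017 for Flt1, -0.27 to 0.32 for Nrp1, -0.49 to 0.13 for Nrp2 and -0.16 to 0.099 for Tek. It gave -0.50 to 0.18 for Angpt1 in pericytes and -0.083 to 0.16 for Angpt2 in horizontal cells. In fibroblasts it gave -0.18 to 0.94 for Angpt1, -0.034 to 0.50 for Nrp1, -0.052 to 0.32 for Nrp2 and -0.20 to 0.022 for Serpinf1. The stricter gate was not run for pericytes, where 1 control mouse was left, nor the sum of S06 and S07 for fibroblasts, of which S07 had none.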

Other observations

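Astrocytes also held the receptor Kdr. At 4000 UMIs per cell 36.2% of the 47 astrocytes had a Kdr UMI, 2.13% a Flt1 UMI and 17.0% an Angpt2 UMI, against 5.05%, 7.71% and 0.360% of rods. The unthinned shares were 63.8%, 25.5% and 34.0% in astrocytes, at a median of 18468 UMIs per cell, and 6.93%, 10.3% and 0.531% in rods, at 4684. Amacrine cells had a Kdr UMI in 21.8% of cells at 4000 UMIs, from 18.4% to 35.7% by mouse. No Nrp1 UMI was found among 1023091 UMIs of astrocytes, which allows up to 2.93 CPM.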
